A study of Mus musculus with 2 samples.

Results

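Integrins are cell surface receptors made of an alpha and a beta subunit that bind matrix proteins and counter-receptors on other cells. Hematopoietic stem cells use them to leave the blood, to enter the bone marrow and to hold on to the niche there. The alpha 4 subunit pairs with beta 1 to bind VCAM1 and fibronectin and with beta 7 to bind MAdCAM-1, alpha 5 with beta 1 binds fibronectin, alpha 6 with beta 1 binds laminins, and alpha 9 with beta 1 binds tenascin and osteopontin. Alpha L and alpha M pair with beta 2 into the leukocyte integrins LFA and Mac, and beta 3 serves in the fibrinogen receptor of platelets and in the vitronectin receptor. The 10 genes described here, chosen by name as homing and adhesion integrins, encode 6 alpha subunits (Itga4, Itga5, Itga6, Itga9, Itgal, Itgam) and 4 beta subunits (Itgb1, Itgb2, Itgb3, Itgb7). They are 10 of the 21853 protein-coding genes of the annotation.

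Open chromatin was measured by ATAC-seq, in which the Tn5 transposase inserts sequencing adapters into accessible DNA, in primary hematopoietic stem cells. The donor mice were C57BL/6J males at an age of 5 to 6 weeks. The series held 1 group of 2 libraries, replicates 1 and 2, from 50000 cells each, and no other cell type or treatment. The labels name no sort markers, no allele and no agent, and give the same donor identifier for both libraries but separate biosamples. A peak records a site that was accessible in enough of the cells, and a site open in fewer cells cannot be told apart from a site less open in each cell. Peak lists carry no read depth, and a site without a peak was not called at the threshold, which does not make it closed chromatin.

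Peaks came first from the thresholded list of each library, which keeps peaks at an irreproducible discovery rate (IDR) of 0.05 or better, that is a −log10 IDR of at least 1.3. The less strict list of each library was used second. A gene was called open when each library had a peak within 1 kb of the start (TSS) of any of its protein-coding transcripts. A shared distal peak is a replicate 1 peak that overlaps a replicate 2 peak, lies over 1 kb from every protein-coding TSS, and has its summit within 50 kb of a TSS of the gene or inside the gene. The signal value of a peak is the authors' own, and its percentile is the share of peaks in the same list with a lower signal. All positions are in mm10.

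The sequences of 9 open sites are shown here because the counts below turn on them: the promoter windows of the 4 genes open in both thresholded lists and of Itgb7, which was open in replicate 1, then 4 distal windows. Each runs 50 bases to either side of its centre and is read 5′ to 3′ on the strand of the gene from RefSeq's GRCm38.p6 sequence, the same chromosomes as mm10. Windows are centred on the replicate 1 summit, except that those of Itgal and Itgb7 were moved to end 30 bases past the most 5′ TSS. Capitals mark matches, on either strand, to 1 of 12 short consensus motifs.
Itgal promoter, chr7:127296189-127296289: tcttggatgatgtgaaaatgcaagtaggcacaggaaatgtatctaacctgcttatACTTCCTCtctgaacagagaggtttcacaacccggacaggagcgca
Itgb2 intron, chr10:77531085-77531185: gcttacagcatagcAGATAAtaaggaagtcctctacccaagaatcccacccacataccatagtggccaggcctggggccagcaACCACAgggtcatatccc
Itgb1 promoter, chr8:128685481-128685581: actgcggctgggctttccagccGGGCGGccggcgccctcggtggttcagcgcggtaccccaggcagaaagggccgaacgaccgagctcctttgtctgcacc
Itga4 promoter, chr2:79254784-79254884: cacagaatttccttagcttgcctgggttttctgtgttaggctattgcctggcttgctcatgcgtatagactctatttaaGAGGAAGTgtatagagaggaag
Itgb7 promoter, chr15:102231915-102232015: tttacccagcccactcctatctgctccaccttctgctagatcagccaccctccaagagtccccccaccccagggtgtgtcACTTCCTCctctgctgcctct
Itgam upstream, chr7:128048856-128048956: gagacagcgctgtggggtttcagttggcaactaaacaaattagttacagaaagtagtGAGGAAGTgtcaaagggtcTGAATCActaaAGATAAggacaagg
Itgb1 upstream, chr8:128654989-128655089: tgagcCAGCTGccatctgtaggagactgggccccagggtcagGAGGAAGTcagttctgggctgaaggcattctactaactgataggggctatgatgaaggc
Itga6 intron, chr2:71814198-71814298: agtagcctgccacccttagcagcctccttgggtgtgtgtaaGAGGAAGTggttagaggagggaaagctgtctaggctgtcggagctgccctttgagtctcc
Itgb3 upstream, chr11:104590202-104590302: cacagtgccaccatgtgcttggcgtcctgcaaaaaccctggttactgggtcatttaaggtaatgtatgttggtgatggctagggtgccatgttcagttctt

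Of the 10 integrin genes, 4 were open in both thresholded lists (40%, Wilson 95% interval 16.8% to 68.7%), against 41.3% of all protein-coding genes. The share of open integrins was thus near the background. The open genes were Itga4 and Itgal among the alpha subunits and Itgb1 and Itgb2 among the beta subunits, which are subunits of the alpha 4 beta 1 and alpha L beta 2 receptors. Itgb7 was open in replicate 1 alone, and for Itga5, Itga6, Itga9, Itgam and Itgb3 neither library reached the threshold. In the less strict lists 8 of 10 were open in both libraries (80.0%, 49.0% to 94.3%), against 58.0% of all genes, and the interval takes in that background. Itga6 then had a promoter peak in replicate 1 alone and Itga5 in replicate 2 alone, so each integrin gene had a promoter peak in at least 1 library.

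**Figure D1:**
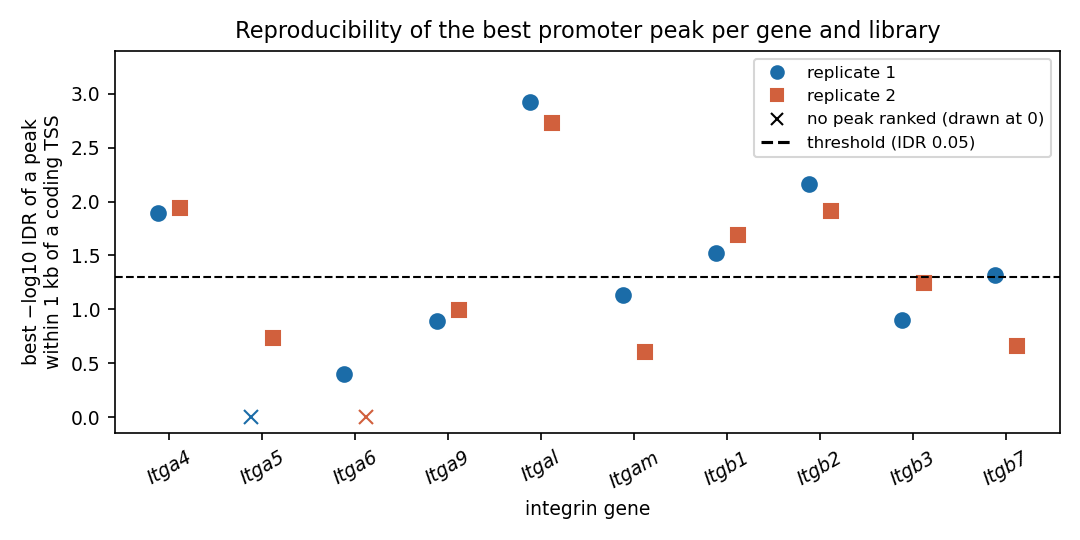
Best −log10 IDR (vertical axis) of any ranked peak within 1 kb of a protein-coding TSS, for each integrin gene, in replicate 1 (circles) and replicate 2 (squares), with the threshold of 1.3 as a dashed line and crosses at 0 where no peak was ranked. Itgal stands highest, at 2.92 in replicate 1 and 2.73 in replicate 2, Itgb7 lies at 1.32 and 0.656, on both sides of the line, and Itgb3 at 0.900 and 1.24, below it.

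Among the leukocyte integrins, Itgal had the strongest promoter peak of the 10 genes. Itgal encodes alpha L, which binds ICAM1 and ICAM2. Its peak spanned chr7:127296057-127296663 in replicate 1, with a signal of 13.1 at the 91.5th percentile, and chr7:127296037-127296686 in replicate 2, with a signal of 13.8 at the 90.0th percentile. Both libraries placed it high in their lists, and the summits lay 29 bp and 3 bp past the most 5′ TSS, within the first exon. The mean percentile of 90.7 was above that of 83.9% of the 9030 open genes, whose median was 68.2 with quartiles of 45.1 and 85.5.

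Itgb2, the beta partner of alpha L and alpha M, had its peaks in the lower part of the thresholded lists. Replicate 1 gave a peak at the TSS, chr10:77529970-77530525, with a signal of 6.90 at the 21.3rd percentile, and another in an intron, chr10:77530932-77531567, with a signal of 5.65 at the 5.63rd percentile. Replicate 2 gave the intron peak, chr10:77530930-77531500, with a signal of 7.49 at the 15.9th percentile. In replicate 2 the TSS peak had a higher signal, 7.91, than the intron peak but a −log10 IDR of 1.08, below the threshold. The thresholded lists therefore shared the intron peak, whose summits lay 765 bp and 793 bp past the nearest TSS, and not the TSS peak. With a promoter window of 500 bp Itgb2 was not open in both thresholded lists, which left 3 genes. The mean percentile of the strongest peak in each library, 18.6, was above that of 6.92% of open genes, but it averages the TSS peak of replicate 1 and the intron peak of replicate 2. The shared intron peak alone stood at the 5.63rd and 15.9th percentiles. In the less strict lists the strongest peak was the TSS peak in both libraries, and its mean percentile was 66.0.

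Itgam encodes alpha M, the subunit of the receptor of neutrophils and monocytes that binds complement fragments and fibrinogen. Its promoter peak lay at the TSS in both libraries and fell short of the threshold in both, with a −log10 IDR of 1.13 and a signal of 5.15 in replicate 1 and 0.607 and 6.04 in replicate 2. The promoter is shared with the gene model Gm49368, which starts at the same base as 1 of the 4 protein-coding Itgam starts, so the peak cannot be given to either. Both distal peaks of Itgam were called in both thresholded lists and both lay upstream between genes. The nearer, 13.7 kb upstream, had a signal of 10.1 at the 69.2nd percentile in replicate 1 and 10.4 at the 60.8th in replicate 2. The other, 20 kb upstream, had a signal of 9.03 at the 56.2nd percentile in replicate 1 and 10.5 at the 61.6th in replicate 2. It lies within 1 kb of the start of the processed pseudogene Gm9299, and the 31 bases at its summit occur 2 times in the genome, so reads there may have 2 sources. Both also lie within 50 kb of a TSS of Trim72 and Gm49368, and the farther one of Pycard.

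Of the subunits that form very late antigen and related receptors, Itga4 and Itgb1 were open with weak peaks. Itga4 encodes alpha 4. Replicate 1 gave 1 broad peak with 3 summits, chr2:79254596-79255916, with a signal of 5.21 at the 3.22nd percentile and its strongest summit at −666 bp from the TSS. Replicate 2 split the same stretch into chr2:79254627-79255035, with a signal of 5.51 at the 1.84th percentile, and chr2:79255115-79255624, with 5.14 at the 1.17th. The mean percentile of 2.53 was above that of 0.332% of open genes, yet the −log10 IDR of 1.89 in replicate 1 and 1.94 in replicate 2 was well past the threshold.

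Itgb1 encodes beta 1, the partner of alpha 4, alpha 5, alpha 6 and alpha 9. Replicate 1 had a peak over the TSS, chr8:128685322-128685938, with a signal of 5.53 at the 4.80th percentile, and replicate 2 had chr8:128685282-128685965, with a signal of 6.17 at the 4.16th. A second peak, chr8:128686246-128686431 in an intron, had a signal of 5.43 in replicate 1. In replicate 2 its signal of 6.28 was above that of the TSS peak, but its −log10 IDR of 1.23 was below the threshold. The mean percentile of 4.48 was above that of 0.897% of open genes. Signals at the foot of the thresholded lists thus went with called promoters at both Itga4 and Itgb1, in both libraries. In the longer less strict lists the mean percentile of the strongest promoter peak was 38.8 for Itga4 and 47.6 for Itgb1.

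Itgb7 encodes beta 7, which with alpha 4 binds MAdCAM-1 on gut vessels. Its peak at the TSS had a signal of 4.63 and a −log10 IDR of 1.32 in replicate 1, just past the threshold, and 5.06 and 0.656 in replicate 2. The signals were close, and the call in 1 library rests on a rank at the edge.

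The fibronectin receptor subunit gene Itga5 and the laminin receptor subunit gene Itga6 had the weakest promoter evidence. Itga5 had 1 candidate in replicate 2, 855 bp past the TSS, with a signal of 3.2 and a −log10 IDR of 0.734, and none in replicate 1. Itga6 had 1 candidate in replicate 1, at −185 bp from the TSS, with a signal of 4.73 and a −log10 IDR of 0.403, and none in replicate 2. Itga9 had no candidate at its most 5′ TSS. Its peak in both less strict lists lay 584 bp past an internal protein-coding TSS, itself 200594 bp into the gene, with a signal of 6.61 and a −log10 IDR of 0.889 in replicate 1 and 6.62 and 0.994 in replicate 2. When the most 5′ TSS alone was used, 7 of 10 genes were open in both less strict lists. Itgb3, the beta 3 gene, had a peak just inside the gene with a signal of 4.73 and a −log10 IDR of 0.900 in replicate 1 and 7.07 and 1.24 in replicate 2.

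Distal peaks were called around most of the genes. Of the 6 genes not open in both thresholded lists, 4 had at least 1 (Itga6, Itga9, Itgam and Itgb3). The like share of all genes not open is not given here, so this count has no background. In the thresholded lists the 10 integrin genes had 14 shared distal peaks, a median of 1.5 and a mean of 1.4 per gene, against a median of 0 and a mean of 0.788 over all genes. At least 1 was assigned to 8 of 10, against 45.7% of all genes. Itgb3 had 3, Itga4, Itga6, Itgam and Itgb2 had 2 each, Itga9, Itgal and Itgb1 had 1 each, and Itga5 and Itgb7 had none. This order did not hold in each library alone: in replicate 1 Itgb2 had 4 and Itgb3 had 3, and in replicate 2 Itgb3 and Itga9 had 5 each. Gene size bears on these counts: the searched window had a median of 114 kb for the integrin genes and 100 kb for all genes. Per 100 kb of window, the median was 1.16 peaks for the integrin genes and 0 for all genes. Pooled over their windows the 10 genes had 1.0 per 100 kb. The mean of the per-gene values over all genes was 0.648, which is another measure, and no pooled value is given for all genes. In the less strict lists the 10 genes had 60 shared distal peaks, a median of 5 and a mean of 6.0, against a median of 2 and a mean of 2.61 over all genes. Each of the 10 then had at least 2, against 75.6% of all genes with at least 1. Per 100 kb the medians were 3.70 for the integrin genes and 1.94 for all genes. No test was run on these differences.

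**Figure D2:**
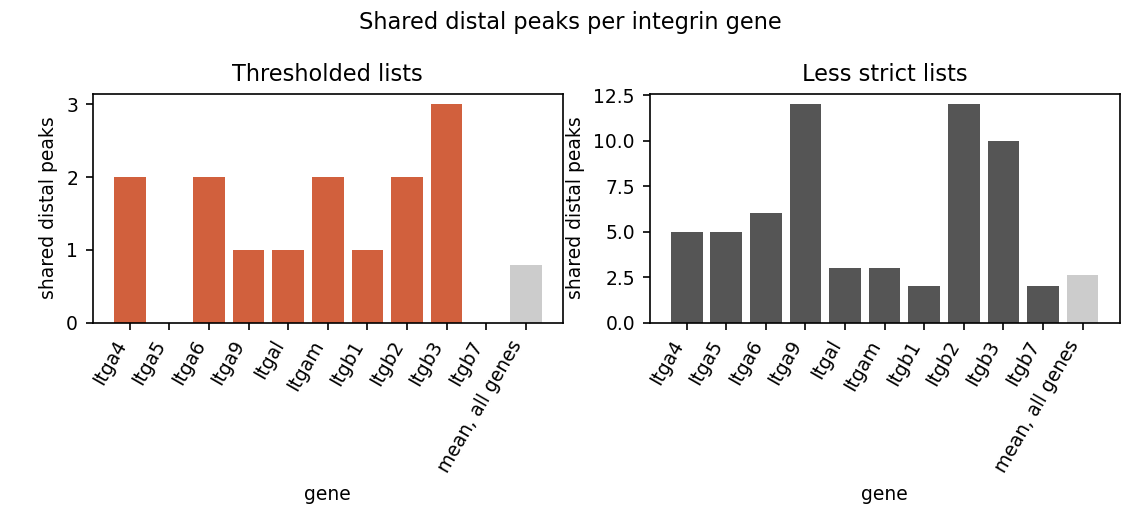
Number of shared distal peaks (vertical axis) of each integrin gene in the thresholded lists (left) and the less strict lists (right), with the mean over all 21853 protein-coding genes as the last bar of each panel. Itgb3 has the most peaks shared by both thresholded lists, 3, though not in replicate 1 alone, and Itga9 and Itgb2 in the less strict lists with 12 each.

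By place, 4 of the 14 peaks lay in an intron of the integrin gene, 1 in its 3′ untranslated part, 6 between genes and 3 inside another gene. Upstream of the most 5′ TSS lay 9, and downstream 5. The integrin's own TSS was the nearest protein-coding one for 9 of 14, and 4 were assigned to no other gene. These 4 were both Itga4 peaks, the Itga6 peak in intron 1 and the Itgb1 peak. Their signals were mid-list: the 14 had a median percentile of 56.2 in replicate 1 and 61.2 in replicate 2, against 52.3 and 54.0 for all 11202 shared distal peaks. The distal sites of Itga4 and Itgb1 thus ranked far above their own promoter peaks.

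Itga4 had a distal peak 27.6 kb upstream, chr2:79227742-79228466, with a signal of 8.49 at the 48.9th percentile in replicate 1 and 11.1 at the 69.2nd in replicate 2. Its other lay in intron 2, 14.9 kb past the TSS, with a signal of 8.57 at the 50th percentile in replicate 1 and 8.13 at the 25.5th in replicate 2. The Itgb1 peak, 30.6 kb upstream at chr8:128654574-128655186, had a signal of 9.37 at the 60.7th percentile in replicate 1 and 9.24 at the 43.8th in replicate 2, and overlaps an exon of the unclassified transcript Gm45746. Each of these 3 sites was stronger than the gene's own promoter peak in both libraries.

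Itga6, with no promoter call, had both its peaks in introns. That in intron 1, chr2:71814070-71814419, 27.3 kb past the most 5′ TSS, had a signal of 10.7 at the 76.1st percentile in replicate 1 and 11.3 at the 71.8th in replicate 2. That in intron 20, 56.5 kb past it, had a signal of 6.47 at the 14.5th percentile in replicate 1 and 11.4 at the 72.7th in replicate 2, and is also within 50 kb of a TSS of Pdk1. The libraries placed the first alike and the second far apart.

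Itgb3 had 3 distal peaks and 2 of them lay in introns of its upstream neighbour Myl4, a myosin light chain gene, whose TSS was nearer. At 17.7 kb upstream the signal was 9.49 at the 62.5th percentile in replicate 1 and 11.8 at the 76.0th in replicate 2. At 26.4 kb upstream it was 9.77 at the 65.7th percentile in replicate 1 and 11.6 at the 74.3rd in replicate 2. The third, 59.6 kb past the TSS in the 3′ untranslated part of Itgb3, had a signal of 7.67 at the 35.2nd percentile in replicate 1 and 11.1 at the 69.6th in replicate 2, and lies within 50 kb of a TSS of Gm11639. Cdc27, a subunit of the anaphase-promoting complex, shares the first 2 of these peaks.

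Itgb2 had a distal peak 7.75 kb upstream, nearer to the TSS of Fam207a, with a signal of 6.53 at the 15.3rd percentile in replicate 1 and 7.90 at the 21.5th in replicate 2. A second lay in intron 8, with a signal of 9.17 at the 58.5th percentile in replicate 1 and 8.47 at the 31.4th in replicate 2, and is also within 50 kb of a TSS of Pttg1ip. Itga9 had 1 peak, 23.7 kb upstream between it and Golga4, with a signal of 9.02 at the 56.2nd percentile in replicate 1 and 6.98 at the 10.2nd in replicate 2. The distal peak of Itgal, 41.8 kb upstream, lay in coding sequence of Zfp771, a zinc finger gene, in a cluster of 8 genes assigned the same peak. It had a signal of 7.96 at the 40.3rd percentile in replicate 1 and 6.91 at the 9.55th in replicate 2, below the Itgal promoter in both libraries.

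**Figure D3:**
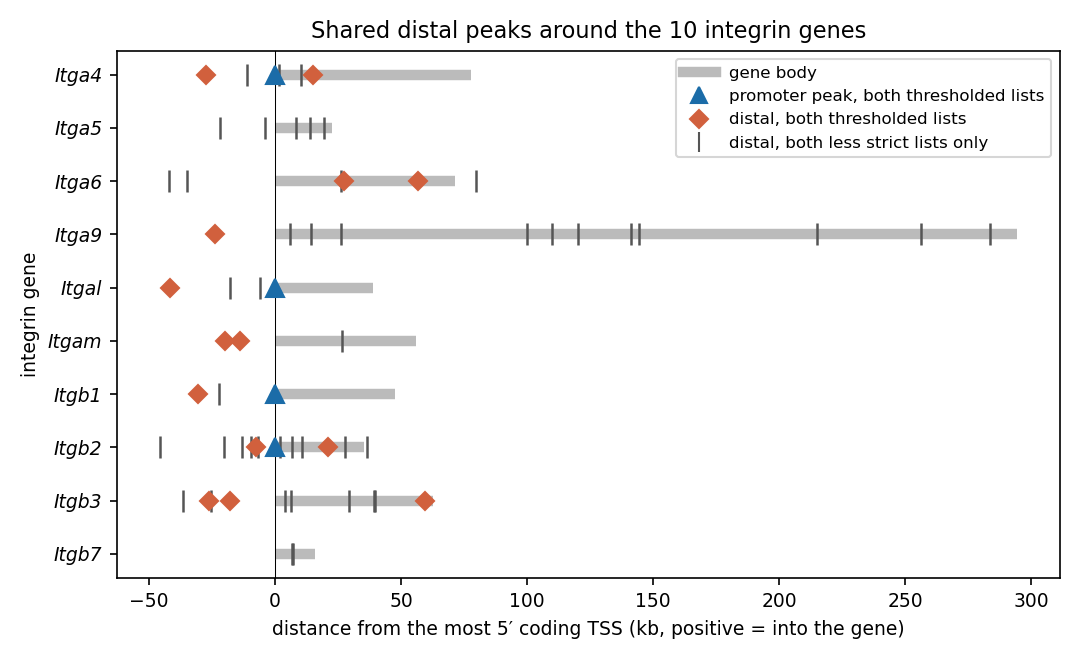
Position of shared distal peak summits (horizontal axis, kb from the most 5′ protein-coding TSS, positive into the gene) for each integrin gene, with thresholded peaks as diamonds, peaks of the less strict lists as ticks, gene bodies as grey bars and a triangle drawn at 0 for genes open in both thresholded lists. Itga9 carries its less strict peaks along 294 kb of gene, and Itgb7 and Itga5 show ticks without a diamond.

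The less strict lists added 46 distal peaks to the 14. Of the 60 in all, 32 lay in an intron of the integrin gene. Itga9, the longest of the genes at 294 kb, had 12, which per 100 kb of window came to 3.49. Itgb2 also had 12 in a 100 kb window, the most per 100 kb among the 10 genes, and Itgb3 had 10, or 8.89 per 100 kb. Itga5, with no thresholded distal peak, had 5, with signals of 3.31 to 6.05 in replicate 1. Itgb7 had 2, both inside the gene, with signals of 5.83 and 7.24 in replicate 1 and 6.91 at each in replicate 2. Only 1 of the 60 lay in a stretch of the Itga6 body outside its coding transcripts.

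The base composition of the promoters divided the genes. Over 500 bp on either side of the most 5′ TSS, the ratio of observed to expected CpG was highest at Itgb1 (0.928), Itga6 (0.884) and Itga9 (0.875), and lowest at Itgb7 (0.163), Itgam (0.219) and Itgb2 (0.244), against a median of 0.561 over all genes. Of all genes in the highest tertile of this ratio 67.4% were open in both thresholded lists, and of those in the lowest tertile 9.61%. In the highest tertile 1 of 3 integrin genes was open, Itgb1, in the middle tertile 2 of 4, Itga4 and Itgal, against 47% of all genes there, and in the lowest 1 of 3, Itgb2. In the less strict lists 2 of 3 were open in the highest tertile, against 87.9% of all genes there. In the middle tertile 3 of 4 were open, against 67.8%, and in the lowest 3 of 3, against 18.1%. Of the 2 in the highest tertile, Itga9 was called at an internal TSS 200594 bp into the gene, where the ratio was not measured. The shared thresholded peak of Itgb2 had summits 883 bp and 911 bp past the most 5′ TSS, also outside the measured 500 bp. The strongest promoter, that of Itgal, had a ratio of 0.309, lower than the median gene.

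Motif letters were counted in the 50 bp on either side of replicate 1 summits, on both strands, and a match is a run of letters, not a shown binding site. The PU.1 letters GAGGAAGT, which share their last bases with the ETS letters CCGGAAGT, occurred in 4 of 14 distal windows, those of Itga6 in intron 1, Itgam at 13.7 kb, Itgb1 and the last peak of Itgb3, against 8.39% of the 11202 shared distal windows. Among the 4 shared promoter windows they occurred at Itga4 and Itgal, against 2.02% of 8525. Around replicate 2 summits the promoter count was 1 and the distal count again 4. The same letters stood in the replicate 1 TSS peak of Itgb2 and the peak of Itgb7, neither of which was shared by the thresholded lists. The less strict lists of the libraries shared both of these peaks. PU.1 and other ETS factors are known regulators of leukocyte integrin genes.

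The RUNX letters TGTGGT occurred in 0 of 14 distal windows, against 21.9% of all (2 of 14 in windows of 100 bp on either side). They were in 1 of 4 promoter windows, that of Itgb2, against 4.84% of all shared promoter windows. That window also held the GATA letters AGATAA, found in 1.18% of all. Around replicate 2 summits the promoter count was again 1 for RUNX but 0 for GATA. The Itgam window at 13.7 kb held PU.1, GATA and AP-1 letters (TGANTCA) side by side, with the GATA letters in 3.89% and the AP-1 letters in 6.05% of all distal windows. The SP/KLF letters GGGCGG, found in 42.8% of all shared promoter windows, were in 1 of the 4, that of Itgb1, and the NF-Y letters CCAAT, in 29.5% of all, were in none. Both Itgb2 distal windows held the NF-Y letters, found in 10.5% of all distal windows, and the upstream one the SP/KLF letters, in 7.39% of all. The E-box letters CAGCTG, in 10.2% of all, were in the Itgb1 distal window, and the MEIS letters TGACAG, in 9.79%, in that of the last Itgb3 peak. Around replicate 2 summits the distal counts were 1 for NF-Y, 0 for SP/KLF, 1 for the E-box and 0 for MEIS. In windows of 100 bp on either side they were 6, 1, 3 and 2 in the same order. The shares of all windows given above are for 50 bp on either side. They are no background for these wider counts or for the 2 of 14 of RUNX. The ETS letters and the CRE letters TGACGTCA, and the IRF and NRF1 motifs, were in none of the 18 windows.

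Related genes of the pathway were counted by role. Of 16 other integrin subunits 5 were open in both thresholded lists (31.2%), and of 11 ligands 2 (18.2%). Of 33 genes of integrin activation and adhesion machinery 20 were open (60.6%, 43.7% to 75.3%), and of 14 homing partners 9 (64.3%, 38.8% to 83.7%). All stand beside the 41.3% of all genes, and the intervals of the 4 lists overlap. In the less strict lists the counts were 10 of 16, 6 of 11, 30 of 33 and 11 of 14, beside 58.0% of all genes. No test compared the lists. The mean number of shared distal peaks per gene in the thresholded lists was 1.4 for the 10 integrins, 2.24 for the machinery, 2.21 for the homing partners, 1.0 for the other subunits and 0.545 for the ligands, against 0.788 for all genes. In the less strict lists the integrins had the highest of these means, 6.0, with 5.15 for the machinery, 5.0 for the homing partners, 3.69 for the other subunits and 2.36 for the ligands, against 2.61 for all genes. The means were not scaled to the length searched, and among the integrins Itga9 had 12 peaks in 344 kb and Itgb2 had 12 in 100 kb.

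**Figure D4:**
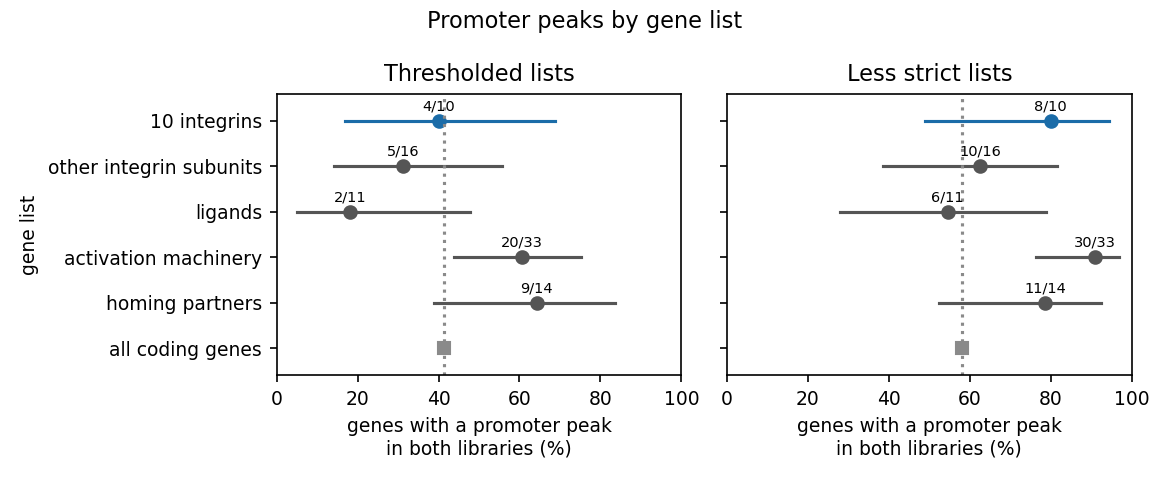
Share of genes with a promoter peak in both libraries (horizontal axis, percent, with Wilson 95% intervals and counts) for the 10 integrins and 4 lists of related genes, in the thresholded lists (left) and the less strict lists (right), with all protein-coding genes as a square and dotted line at 41.3% and 58.0%. The interval of the activation machinery lies to the right of the line in both panels. The lists were chosen with earlier results of these data known, so this position is not a test.

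Among the other integrin subunits, Itgb8 and Itgav, which together form an activator of TGF-beta, had the strongest open promoters, with mean percentiles of 72.4 and 71.0. Itga8 followed at 55.9 and Itga2, a collagen receptor subunit, at 36.2. Itga10, Itga11, Itgad and Itgae had no promoter peak in any of the 4 lists. The open ligand genes were Spp1, which encodes osteopontin, at 96.7 and Lama4, a laminin chain, at 16.6, while Fgb, Lama5 and Tnc had none in any list. In the machinery the highest were Lims1, which encodes the adaptor PINCH, at 96.1, the integrin inhibitor gene Sharpin at 87.2, the GTPase gene Rhoa at 85.4 and the LFA activator gene Rassf5 at 84.1. Fermt1, Parva and Tln2 had none in any list. Among the homing partners Cd47 (65.1), Robo4 (57.8), Jam3 (55.0) and Alcam (38.4) led, and Cxcl12 and Sele, which niche and endothelial cells express, had none.

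The cell type label was checked against promoter peaks of marker genes. Of 11 stem cell markers 5 were open in both thresholded lists (Kit, Hlf, Meis1, Cd34 and Flt3; 45.5%), near the 41.3% of all genes, and 9 in both less strict lists (81.8%), against 58.0% of all genes. Gata2 had no promoter peak in any list but 4 shared distal peaks. Of the erythroid markers 0 of 5 were open in both thresholded lists, of the granulocyte and monocyte markers 0 of 6, of the T and NK cell markers 0 of 5 and of the B cell markers 1 of 5 (Pax5). Among the markers of granulocytes and monocytes, in which alpha M is abundant, Elane, Csf1r and Ly6g had no promoter peak in any list, Mpo, S100a8 and Csf3r had one in both less strict lists, and Csf1r had 2 shared distal peaks. Of 5 megakaryocyte and platelet markers 3 were open (Gp1ba, Gp9 and Pf4), and of 5 endothelial and stromal markers 3 (Cdh5, Col1a1 and Pdgfrb). In both less strict lists the counts were 2 of 5 erythroid, 3 of 6 granulocyte and monocyte, 1 of 5 T and NK cell, 2 of 5 B cell, 3 of 5 megakaryocyte and platelet, and 5 of 5 endothelial and stromal markers. The part of such cells in the integrin peaks was not tested.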

How the data were processed

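ATAC-seq peak lists of 2 libraries of hematopoietic stem cells were analysed in mm10, per the labels. The deposited lists give each peak a signal value from the authors' peak caller, and the authors' ranked lists a score column that matches −log10 of the global IDR. For the aligner, the peak caller, any transposase offset and mitochondrial reads, nothing is given in the sources used here. Replicate 1 is labelled with 2 sequencing instruments and replicate 2 with none. The thresholded lists held 25141 intervals in replicate 1 and 24495 in replicate 2, and the less strict lists 62918 and 64843, each interval counted once at its strongest summit. No counts of reads were used, so depth is unknown, and intervals cover counting of genes only.

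Starts came from protein-coding transcripts of GENCODE M21. Python 3.11.15 with numpy 2.4.6 and pandas 2.3.3 was used, and the peak assignment and motif counts were checked on simulated data. With 1 group there was no contrast and no test. The integrins, the gene lists, the 12 motifs and the markers were chosen with earlier results of these data known. The text names all 10 integrins, in each related list up to 4 open genes of highest mean percentile and up to 4 lacking peaks, and genes sharing a promoter or distal peak with an integrin. Alternatives were other lists, windows, overlaps, TSS sets and each library alone.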

Additional observations from a re-analysis of the deposited data

How the results depend on the processing

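The 4 genes open in both thresholded lists became 8 in the less strict lists, 7 in the series-level thresholded list, 8 in the series-level conservative list and 1 with the 50% strongest peaks, while the 8 of the less strict lists became 3 with their 50% strongest. Each library alone gave 4 to 5 and 9 to 9. The 14 shared distal peaks became 60, 34, 44 and 5 under the same 4 lists, 8 within 20 kb and 9 when each peak went to its nearest TSS, and 19 to 21 in each library alone. Their median of 1.5 per gene became 5 in the less strict lists, 4 in the conservative list, 0 with the 50% strongest peaks and 0.5 within 20 kb. The 8 genes with at least 1 became 3 with the 50% strongest peaks and 5 within 20 kb. The other alternatives run stayed within 1.5 times these counts. By gene, replicate 2 alone gave 5 distal peaks for Itga9, against 1 shared, and 5 for Itgb3, against 3, and replicate 1 alone gave 2 for Itga9, 4 for Itgb2, against 2 shared, and 1 for Itgb7, against 0. No paired analysis was possible because the series holds 1 group.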

Other observations

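RefSeq's table of promoters in GRCm38.p6 held 6 of the 10 integrin genes. Its SP/KLF letters GGGCGG were in 4 of these 6 promoters (Itga4, Itga5, Itgam and Itgb1), against 35.7% of 32851 promoters. The E-box letters CAGCTG were in 3 of 6 (Itga4, Itga5 and Itga9), against 16.3%, and the PU.1 letters in 1 of 6 (Itgb7), against 3.2%. The RUNX letters were in 1 of 6 (Itga4), against 16.8%, and the AP-1 letters in 1 of 6 (Itga9), against 7.81%. None of the 6 held the NF-Y letters, found in 37.4% of all, the MEIS letters, in 19.2%, or the GATA letters, in 11.2%. The ETS, IRF, CRE and NRF1 motifs were also in none, against 3.89%, 3.44%, 1.79% and 0.971%. The start that RefSeq's table gives for Itga9 lies inside the gene, next to another of its protein-coding starts in the peak annotation.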
